A study of Mus musculus with 6 samples.

Results

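The S100 proteins are small calcium-binding proteins of vertebrates that carry a pair of EF-hand loops and mostly work as dimers. Inside the cell they dock on annexins, myosin and other partners when calcium rises. Several of them, above all S100a8 and S100a9, leave stressed or dying cells as alarmins, danger signals that act on other cells through Toll-like receptor 4 and the receptor Ager, and epidermal keratinocytes are known to switch these genes on after wounding and in psoriasis. The 10 genes described here were S100a3, S100a4, S100a6, S100a7a, S100a8, S100a9, S100a10, S100a11, S100a14 and S100a16, chosen by symbol from the 17866 genes of the deposited table. All 10 were listed there and all 10 passed the filter on low counts.

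RNA of whole corneal epithelium was sequenced from 6-month-old mice of the strain C57BL/6, of which 3 bore the label wild type (WT) and 3 the label Rela-/- (KO). Rela encodes RelA, a subunit of the transcription factor NF-κB, and the comparison asks what differs in the epithelium without it. In the study's methods the mutants were Krt14-Cre; Rela f/f mice, in which Rela is lost where the keratin 14 promoter drives Cre, so stromal, vascular and immune cells keep the gene. Which Cre or floxed alleles the WT mice carried is not given in the sources used here. Each group held 3 independent biological samples.

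Rela counts were 1871, 1844 and 1855 in WT and 318, 223 and 313 in KO, where the scaled level was 16.5% of WT, so the targeted gene matched the label of every library. The libraries held 20158404 to 20880347 estimated counts each. The corneal keratin Krt12 reached 755776 to 811469 counts in WT, and 7 of 7 corneal markers were lower in KO, whereas 5 of 5 tested epidermal, 4 of 4 conjunctival and mucosal, 5 of 5 Langerhans cell, 3 of 3 T cell, 7 of 9 myeloid, 5 of 6 stromal and 1 of 1 endothelial markers were higher. At or under 3 counts in every WT library were 4 of 5 T cell, 4 of 8 stromal and 3 of 10 myeloid genes in the table. The same held for 1 of 5 Langerhans cell and 1 of 4 conjunctival and mucosal genes. Such a gene enters the test only through its KO reads, so its direction was fixed by the filter. Over all 13305 genes tested, 62.0% passed at an adjusted p of 0.05, 31.8% higher and 30.2% lower in KO. Every adjusted p given here comes from edgeR's quasi-likelihood test with Benjamini-Hochberg adjustment over those genes, unless another tool is named.

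Of the 10 S100a genes, 6 were higher in KO (S100a4, S100a7a, S100a8, S100a9, S100a14 and S100a16), none was lower, and 4 did not pass (S100a3, S100a6, S100a10 and S100a11). That is 6 of 10 higher, against the 31.8% of all genes. The median log2 fold change of the 10 was 0.73, against 0.006 over all genes tested. In 7 of the 10 the 3 KO values in CPM all lay above the 3 WT values, which was so for 34.7% of all genes, and in the other 3 the groups overlapped. At the threshold the study used, an adjusted p of 0.001 or less with at least a 2-fold change, 2 of the 10 were higher (S100a4 and S100a7a), against 11.6% of all genes. In whole tissue, a change in the number of cells that make a transcript and a change in the transcript per cell cannot be told apart.

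**Figure D1:**
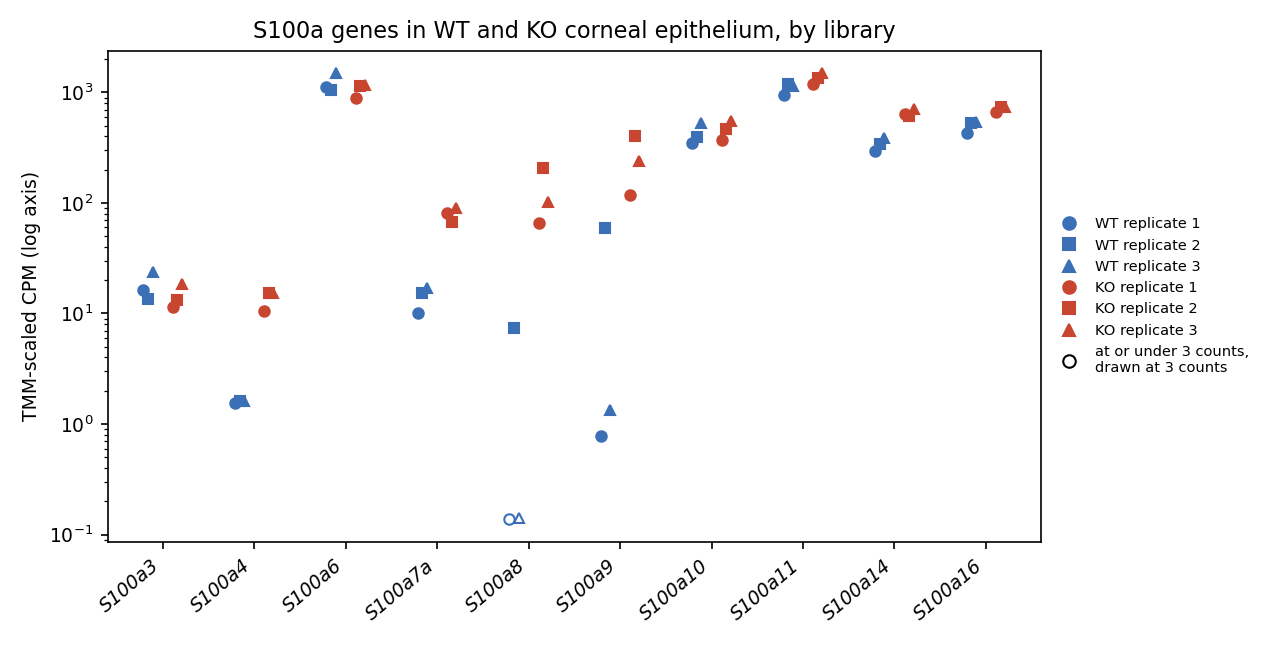
Counts relative to library size, scaled by TMM factors (CPM, log axis) of the 10 S100a genes, with 1 point per library, WT in blue and KO in red, and the replicate shown by the shape. S100a8 and S100a9 spread most within WT because replicate 2 stood far above the other WT libraries, whereas S100a4 and S100a7a formed 2 tight groups and S100a6 and S100a10 overlapped.

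The alarmin pair came first in size of change. S100a8 and S100a9 join into calprotectin, a heterodimer that binds zinc and manganese away from microbes and is the main cytosolic protein of neutrophils. S100a8 counts were 0, 160 and 1 in WT replicates 1, 2 and 3, and 1297, 4097 and 2024 in the KO replicates. S100a9 counts were 17, 1263 and 28 in WT, against 2312, 8001 and 4844 in KO. Every KO library was above every WT library for both genes, but the WT group was not uniform: replicate 2 held nearly all of the S100a8 and S100a9 reads of that group.

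Scaled to CPM, S100a8 was 2.50 ± 4.28 in WT and 124 ± 72.7 in KO (SD, n = 3 each), a ratio of 49.7. On the log2 scale this was 5.63 with an SE of 1.08 (adjusted p = 0.00213). Without WT replicate 2 the other WT libraries were at or under 3 counts, and KO was at least 824-fold higher than the level of 3 counts per library. This gene passed under each of the 15 alternative settings tried.

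S100a9 rose from 20.3 ± 33.3 to 253 ± 142 CPM, a ratio of 12.5, at a log2 fold change of 3.64 with an SE of 1.28 (adjusted p = 0.0354). Without WT replicate 2 the ratio was 241 and the log2 fold change 7.91 (SE 0.669, adjusted p = 4.49e-05). The gene no longer passed when WT replicate 1, WT replicate 3, KO replicate 2 or KO replicate 3 was left out, with adjusted p values of 0.0628, 0.0717, 0.085 and 0.0578. The size of the S100a9 difference thus depended on a single WT library, while its direction was the same under all 15 settings.

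The balance within the pair also differed between libraries. Per unit of length, as TPM, the share of a gene among all transcripts after division by length, S100a8 stood at 0.769, 0.701 and 0.572 of the S100a9 level in the KO libraries. In WT it stood at 0.174 in replicate 2 and 0.0494 in replicate 3, the latter resting on 1 read of S100a8, and replicate 1 had no S100a8 read. The difference in log2 ratio was 2.87 between 3 KO and 2 WT libraries, with a two-sided exact permutation p of 0.1, which is the smallest this design can give. The difference was 3.77 without WT replicate 2 and 1.96 without WT replicate 3, each leaving a lone WT library. In every library with reads of both genes, S100a9 was thus the more abundant of the pair.

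S100a8 and S100a9 are neighbours on chromosome 3 (GRCm38), transcribed towards each other. S100a8 lies at 90669071-90678281 on the plus strand and S100a9 at 90692630-90695721 on the minus strand. S100a4, the other gene that started from very few reads, lies in the same cluster at 90603770-90606045 on the plus strand. The 250 bases before the RefSeq start of these 3 genes are given here because they are the members with the largest differences after a low WT level. The sequences are RefSeq's, in build GRCm38.p6, written 5′ to 3′ on the strand of the gene, and capitals mark matches to TATAAA, the core of a TATA box, and to TTGCNNAA, a C/EBP-type motif.
S100a4, chr3:90603520-90603769, plus strand: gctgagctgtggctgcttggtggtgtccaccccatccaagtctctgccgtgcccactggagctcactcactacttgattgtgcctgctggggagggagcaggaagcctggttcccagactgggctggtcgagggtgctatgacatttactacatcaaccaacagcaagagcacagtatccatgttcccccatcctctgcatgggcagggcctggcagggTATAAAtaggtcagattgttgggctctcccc
S100a8, chr3:90668821-90669070, plus strand: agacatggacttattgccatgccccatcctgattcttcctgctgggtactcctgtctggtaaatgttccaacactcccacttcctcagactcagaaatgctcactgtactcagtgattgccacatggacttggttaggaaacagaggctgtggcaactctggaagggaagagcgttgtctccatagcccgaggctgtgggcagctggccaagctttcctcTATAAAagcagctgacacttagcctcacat
S100a9, chr3:90695722-90695971, minus strand: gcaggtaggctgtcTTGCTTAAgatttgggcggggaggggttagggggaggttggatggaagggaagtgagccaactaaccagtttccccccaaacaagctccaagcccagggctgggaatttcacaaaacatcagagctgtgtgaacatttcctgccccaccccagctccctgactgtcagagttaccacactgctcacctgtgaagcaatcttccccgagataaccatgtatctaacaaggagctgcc

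The S100a4 window held TATAAA beginning 31 bases before the start, and the S100a8 window held it 30 bases before. The S100a9 window held no TATAAA but had TTGCNNAA 236 bases before its start. Both motifs were searched on both strands, as were TGANTCA, the AP-1 core, and the consensus κB motif. Over all 32851 mouse windows of the same length, TATAAA occurred in 12.4%, TTGCNNAA in 9.56%, TGANTCA in 6.75% and the κB consensus in 7.25%. RefSeq windows were at hand for 8 of the 10 genes, 12 windows in all, since S100a3 had 4 and S100a16 had 2. Among these 12, the κB consensus was found in 0. TGANTCA stood in the S100a11 window 136 and 38 bases before the start and in 1 of the S100a16 windows 192 bases before it, and 1 of the S100a3 windows held TATAAA 52 bases before its start. A match describes letters in a window and is no evidence of binding, and a missing match says only that these letters are not there.

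S100a7a is a mouse gene of the psoriasin and koebnerisin group, antimicrobial S100 proteins of inflamed epidermis. Its estimated counts were 218, 331 and 358 in WT and 1601, 1347 and 1799 in KO. The groups were far apart, and no WT library stood out. The level rose from 14.1 ± 3.65 to 79.4 ± 11.1 CPM, a ratio of 5.63, at a log2 fold change of 2.49 with an SE of 0.200 (adjusted p = 1.99e-05). It passed in 15 of 15 alternatives. Its annotated span overlaps that of S100a6, and it was the only member with fractional counts, in 5 of 6 libraries.

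**Figure D2:**
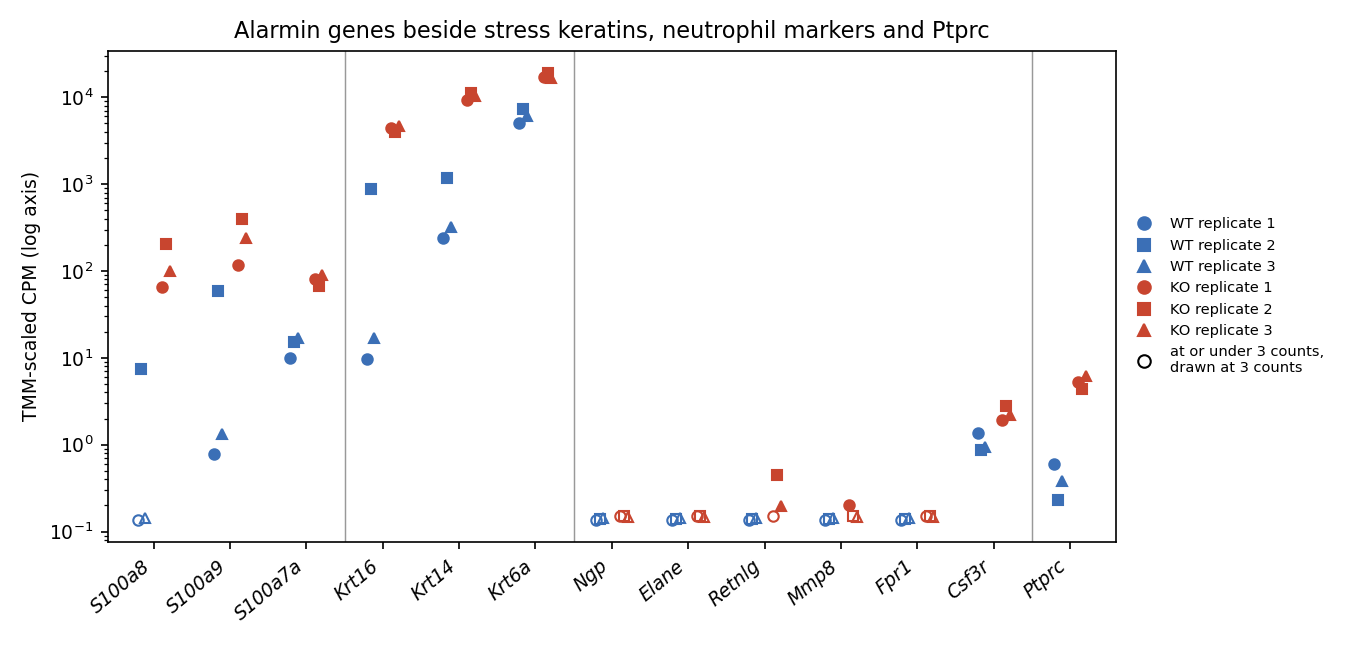
CPM scaled by TMM factors (log axis) of the alarmin genes, 3 of the 5 stress keratins, 6 neutrophil markers and Ptprc, with 1 point per library. WT replicate 2, the blue square, stood above the other WT libraries for S100a8, S100a9, Krt16, Krt14 and Krt6a. For S100a7a, Csf3r and Ptprc it did not. The other neutrophil markers drawn had 0 counts in every WT library, so they could not show such a difference. Ltf, which is not drawn, had 24.6, 45.1 and 44.0 CPM in WT replicates 1, 2 and 3. Open symbols are libraries at or under 3 counts.

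Calprotectin genes are expressed both by stressed keratinocytes and by neutrophils, so both sets of markers were read in the same libraries. The stress keratins Krt6a, Krt6b, Krt14, Krt16 and Krt17 are those that keratinocytes add or keep during wound healing and hyperproliferation. They were higher in KO in 5 of 5 cases, against 31.8% of all genes. Krt16 gave counts of 209, 18787 and 360 in WT, and of 86804, 79508 and 94747 in KO, at a log2 fold change of 3.86 with an SE of 1.47 (adjusted p = 0.0479). It therefore showed the same unequal WT group, with replicate 2 high, as S100a8 and S100a9. Krt16 passed in 8 of 15 alternatives, and without WT replicate 2 its log2 fold change was 8.36 (adjusted p = 1.51e-06). Krt14, a basal keratin, had 5207, 25395 and 6712 counts in WT, again highest in replicate 2, and 184060 to 223531 in KO. Krt17 had 294, 678 and 404 counts in WT and 29088 to 37189 in KO.

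Of 12 neutrophil markers listed, 10 were in the table and 4 had enough reads to be tested. Ltf, Csf3r and Cxcr2 were higher in KO, with log2 fold changes of 1.56, 1.13 and 0.82, and Ly6g was lower, at -1.80. The Ly6g groups overlapped, with 2.26 to 9.45 CPM in WT and 0.755 to 2.6 CPM in KO, and its call held in 12 of 15 alternatives. The listed genes Elane, Ngp, Fpr1 and Cd177 were at or under 3 counts in all 6 libraries. Retnlg had 0 counts in every WT library and 0, 9 and 4 in KO, and Mmp8 had 0 in every WT library and 4, 3 and 1 in KO. The summed level of the 10 genes was 32.7 to 58.3 CPM in WT and 90.7 to 173 CPM in KO, most of it from Ltf, which secretory epithelia also make.

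Library by library, Ltf stood at 24.6, 45.1 and 44.0 CPM in WT and at 82.3, 90.3 and 162 CPM in KO, so that WT replicate 2, the WT library with most S100a8 and S100a9, was level with WT replicate 3. Cxcr2 stood at 3.11, 3.31 and 3.88 CPM in WT and at 5.45, 7.19 and 5.58 CPM in KO, and Csf3r at 1.35, 0.867 and 0.938 CPM and at 1.93, 2.80 and 2.20 CPM. For both receptor genes, and for Retnlg, KO replicate 2 was the highest KO library, as it was for S100a8 and S100a9, whereas WT replicate 2 was the highest WT library for neither receptor gene. The pan-leukocyte gene Ptprc gave counts of 13, 5 and 8 in WT, and of 105, 87 and 123 in KO, and the macrophage and granulocyte gene Lyz2 had 0, 2 and 2 against 125, 210 and 227. WT replicate 2 did not stand above the other WT libraries for either gene. The part of immune cells in the S100a8 and S100a9 difference between the groups was not tested beyond these values.

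The genes whose pattern over the 6 libraries was most like that of S100a8 were S100a9, Igfbp3, Krt16, Fabp5 and Sprr2h. Likeness was the root mean square difference of log2(CPM + 0.5) after centring each gene. S100a8 stood at 0 and 0.0473 CPM in WT replicates 1 and 3, so its values there were set mainly by the added 0.5. Over 10456 genes with a mean count of at least 100, the 5 genes named lay at 0.69, 0.86, 0.90, 0.99 and 1.04. For S100a9 they were S100a8, Krt16, Aldh1l2, Nupr1 and Krt14, at 0.69, 0.76, 1.19, 1.20 and 1.24. Of all genes compared, each alarmin was thus nearest to the other. Igfbp3, for an insulin-like growth factor binding protein, had 1, 34 and 1 counts in WT, and Sprr2h, for a cornified envelope precursor, had 0, 21 and 1. Since the genes were picked for this pattern, a high WT replicate 2 in them is fixed by the choice, and the likeness is a description over 6 libraries of 2 genotypes.

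S100a4, a binder of non-muscle myosin found in fibroblasts, macrophages and T cells, had the lowest adjusted p of the 10. Its counts were 34, 35 and 34 in WT and 207, 304 and 309 in KO. Every KO library exceeded the WT level several times over, and WT replicate 2 did not stand apart. The level rose from 1.60 ± 0.0367 to 13.7 ± 2.79 CPM, a ratio of 8.58, at a log2 fold change of 3.10 with an SE of 0.201 (adjusted p = 6.54e-06), and the call held in 15 of 15 alternatives.

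Markers of the cells in which S100a4 is known moved with it in part. Of 6 stromal markers tested 5 were higher in KO and Pdgfra, a fibroblast receptor gene, was lower, and of 9 myeloid markers 7 were higher, the integrin gene Itgam was lower (log2 fold change -0.60, adjusted p = 0.0113) and Cd68 did not pass. The mesenchymal filament gene Vim gave counts of 13, 29 and 16.3 in WT, and of 170, 159 and 288 in KO, and Dcn, a proteoglycan gene of stroma, had 1, 0 and 1 against 153, 24 and 93. Dcn, Col1a2, Lyz2 and Adgre1 were at or under 3 counts in every WT library, so they could not have been called lower. Langerhans cell genes summed to 8.47 to 18.6 CPM in WT and 93.8 to 173 CPM in KO. The T cell genes summed to 0.702 to 0.779 CPM and 2.93 to 6.13 CPM. The myeloid genes summed to 269 to 340 CPM in WT and 201 to 281 CPM in KO, most of it from Itgam. In WT, Itgam had 4999 to 6483 counts beside 5 to 13 of Ptprc, so this sum mainly gives the level of Itgam. Within KO, S100a4 was lowest in replicate 1. So were Col1a1 (27, 49 and 51 counts), Col1a2, Lyz2, Fcer1g (56, 85 and 85 counts), Itgam, Adgre1, Cd14 and Tyrobp. Lowest in replicate 2 were Dcn, Vim, Thy1, Ptprc, Cd68 (641, 505 and 734 counts) and the Langerhans and T cell sums. Csf1r was nearly level, with 148, 151 and 154 counts, and Pdgfra was lowest in replicate 3. Within WT, replicate 2 was the highest for the stromal markers Col1a1 (1, 26 and 8 counts) and Vim. It was also the highest, at few counts, for Col1a2 and Thy1, but not for Dcn or Pdgfra. The share of these cells in the S100a4 difference was not tested.

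S100a14 and S100a16 are epithelial S100 proteins that can bind each other, and their genes are neighbours. S100a14 gave counts of 6433, 7364 and 8268 in WT, and of 12478, 12325 and 14157 in KO. It rose from 343 ± 48.4 to 652 ± 46.9 CPM, a ratio of 1.90 (log2 fold change 0.93, SE 0.128, adjusted p = 0.000349). S100a16 gave counts of 9387, 11274 and 11394 in WT, and of 13226, 14722 and 14830 in KO, at a log2 fold change of 0.52 with an SE of 0.119 (adjusted p = 0.00497). Both were abundant in WT already, both separated the groups without overlap, and both passed in 15 of 15 alternatives. In reads added, S100a14 gained more than S100a8 did, although its fold change was far smaller.

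S100a11, which binds annexin A1 and is cross-linked into the cornified envelope, was the most abundant member. It gave counts of 20502, 25425 and 24325 in WT, and of 23681, 26791 and 30027 in KO. The raw counts overlapped, and after scaling the KO values of 1199, 1344 and 1496 CPM lay just above the WT values of 939, 1183 and 1152. The log2 fold change of 0.30 (SE 0.136) had an adjusted p of 0.0837 and did not pass, while DESeq2 gave 0.0403 and a fit blocked on replicate number gave 0.0416, the 2 of 15 alternatives under which it passed.

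S100a6 (calcyclin) and S100a10 (the light chain of the annexin A2 tetramer) had overlapping groups and did not pass. S100a6 gave counts of 24205, 22561 and 31640 in WT, and of 17548, 22975 and 23506 in KO, at a log2 fold change of -0.19 with an SE of 0.172 (adjusted p = 0.371). S100a10 gave 7624, 8417 and 11267 in WT, and 7261, 9362 and 11001 in KO, at a log2 fold change of 0.12 with an SE of 0.193 (adjusted p = 0.608). In both genes WT replicate 3 was the highest WT library. Without WT replicate 3 the S100a6 value was 0.00, and without KO replicate 3 that of S100a10 was -0.02, so the sign of neither held under all settings.

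S100a3, best known from the hair cuticle, gave counts of 358, 287 and 504 in WT, and of 228, 266 and 374 in KO, at a log2 fold change of -0.30 with an SE of 0.244 (adjusted p = 0.312). The groups overlapped. Hair shaft and follicle markers, 9 of them in the table, had too few reads to test and summed to 0.494 to 0.914 CPM in WT and 1.05 to 1.27 CPM in KO. The annotated span of S100a3 contains the small gene S100a2, and whether the counting used strand is not given in the sources used here.

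**Figure D3:**
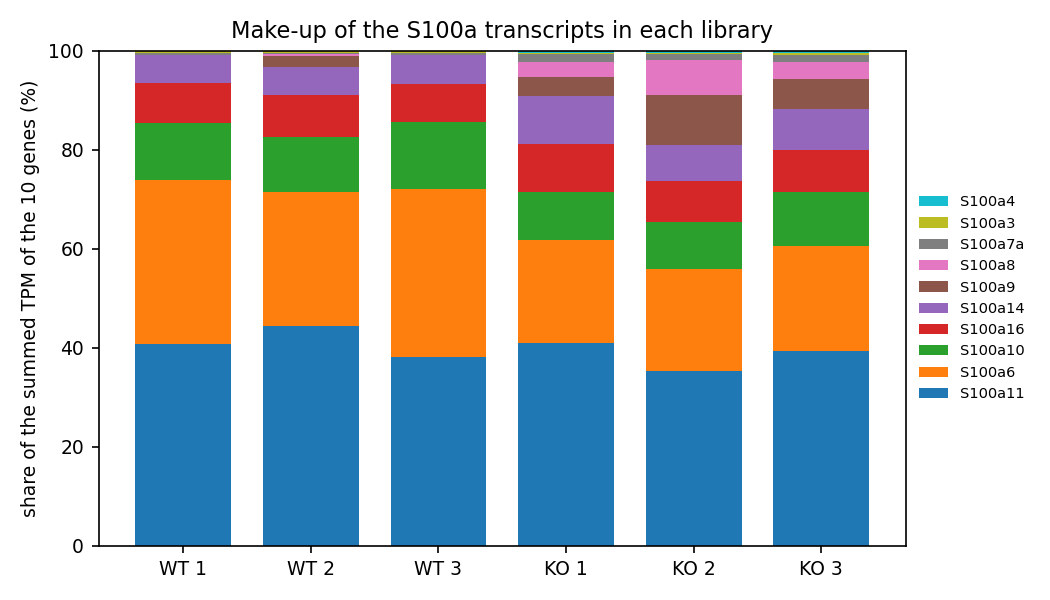
Share of the summed TPM of the 10 S100a genes taken by each gene in each library, in percent, stacked to 100. S100a8 and S100a9, in pink and brown, were thin bands in WT and took 6.8% to 17.2% in KO, while S100a6, in orange, took a smaller share in each KO library than in any WT library.

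Compared per unit of length within a library, 5 of the genes were abundant and 5 scarce in WT. In WT the order by mean TPM was S100a11 at 5068, S100a6 at 3868, S100a10 at 1497, S100a16 at 993, S100a14 at 712, S100a9 at 91.1, S100a3 at 59.3, S100a7a at 37.6, S100a8 at 15.4 and S100a4 at 7.19. Neighbours whose WT ranges overlapped were S100a11 and S100a6, S100a9 and S100a3, S100a7a and S100a8, and S100a8 and S100a4. The places of S100a9 and S100a8 rested on WT replicate 2, with 264 and 45.8 TPM, since the other WT libraries had 3.61 and 5.67 TPM of S100a9 and 0 and 0.28 TPM of S100a8.

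In KO the first 6 places by mean TPM were the same, and then came S100a8 at 600 TPM, S100a7a at 172, S100a4 at 49.9 and S100a3 at 38.1. S100a9 reached 894 TPM on average, with a KO range of 414 to 1430 TPM. That range overlapped those of S100a10 (1031 to 1511), S100a16 (1060 to 1179), S100a14 (1028 to 1143) and S100a8 (318 to 1003). The KO ranges of S100a10 and S100a16, of S100a16 and S100a14, and of S100a4 and S100a3 also overlapped. Places 3 to 6 were thus not separated in KO. S100a8 and S100a9 together made up 6.8%, 17.2% and 9.6% of the TPM of the 10 genes in KO, against 0.0325%, 2.48% and 0.0442% in WT. S100a6 and S100a11 together made up 72.4% ± 1.23 of that sum in WT and 59.5% ± 3.0 in KO (SD, n = 3 each), without overlap. The 10 genes as a whole accounted for 0.375% ± 0.0446 of the reads in WT and for 0.458% ± 0.0635 in KO, and here the groups overlapped.

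TPM and CPM gave different sizes for the same genes. TPM divides by the length-scaled total of each library, whereas the CPM was scaled by TMM factors, 1.01 to 1.05 in WT and 0.952 to 0.99 in KO. The parts of these 2 steps were not separated. S100a11 stood at 97.5% of its WT mean in TPM and at 123% in CPM, and S100a6 at 69.6% and 87.9%. The genes with large differences kept them on both scales, S100a4 at 6.94-fold in TPM and 8.58-fold in CPM and S100a7a at 4.57-fold and 5.63-fold. S100a16 was 1.14-fold higher in TPM and 1.44-fold in CPM, so its difference, though it passed under every scaling tried, was small on the TPM scale.

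**Figure D4:**
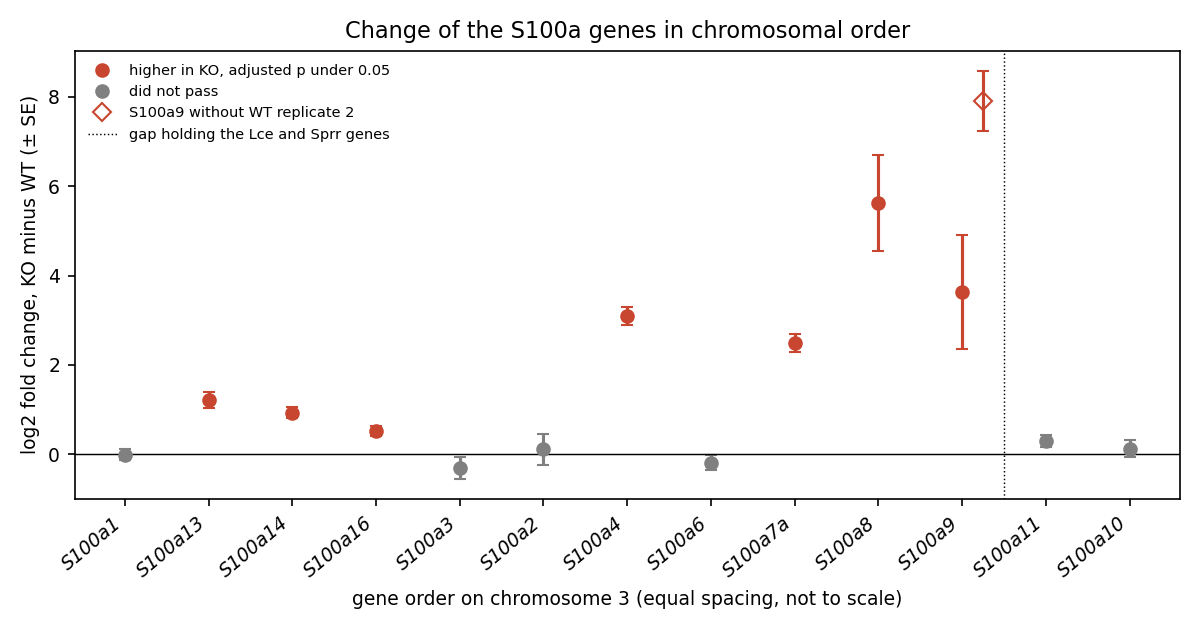
Log2 fold change (KO minus WT, with the SE as bars) of the 13 S100a genes of chromosome 3 in their order along it, at equal spacing. Genes that passed (red) and did not pass (grey) are interspersed along the cluster, and the open diamond gives S100a9 without WT replicate 2.

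All 10 genes sit in the epidermal differentiation complex of chromosome 3, in which 13 S100a genes span 3.05 Mb. The first 11 lie within 185 kb, from 90511034 to 90695721, and S100a11 (93520496-93526288) and S100a10 (93555068-93564645) follow after a gap of 2.82 Mb. Genes that passed and genes that did not were neighbours in the cluster. S100a6 (90612894-90624297), with overlapping groups, lies between S100a4 and the bulk of S100a7a (90613127-90658130), both higher in KO, and S100a3 (90560356-90602706) lies between S100a16 (90537257-90543151) and S100a4.

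The gap held 52 genes of the table, 35 of them Lce or Sprr genes for cornified envelope precursors. Of the 44 with enough reads to be tested, 43 were higher in KO, against 31.8% of all genes, and 1, Ivl, was lower. Of the 52 genes, 28 were at or under 3 counts in every WT library. Those of them that were tested passed the filter only through KO reads, so their direction was fixed in advance. The summed level of the 52 genes was 64.7, 203 and 106 CPM in WT and 14512 to 26012 CPM in KO, again with WT replicate 2 highest in its group. The S100a genes on either side, S100a9 and S100a11, thus had log2 fold changes of 3.64 and 0.30.

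Other S100 genes were examined for comparison. Of 8 listed, 5 were in the table and 3 were tested. S100a13, which takes part in the release of proteins without a signal peptide, gave counts of 66, 67 and 67 in WT, and of 127, 176 and 131 in KO (log2 fold change 1.22, adjusted p = 0.000564). S100a1 did not pass (-0.01), nor did S100pbp (-0.26, adjusted p = 0.0682). S100b and S100z were at or under 3 counts in all libraries.

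**Figure D5:**
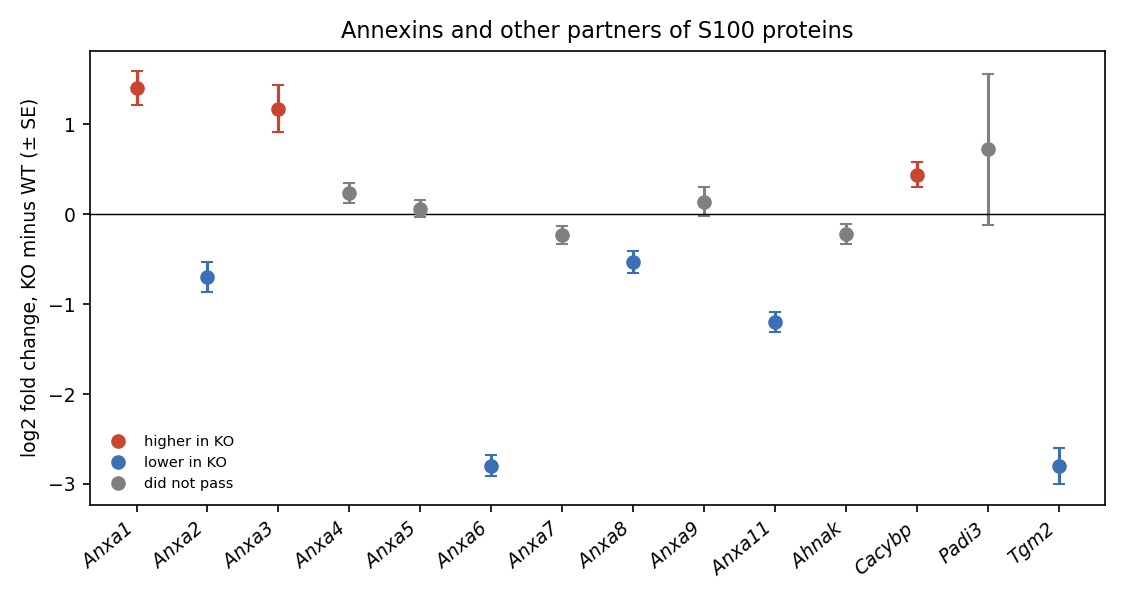
Log2 fold change (KO minus WT, with the SE as bars) of 14 annexins and other partners of S100 proteins. Red marks genes higher in KO, blue genes lower in KO and grey those that did not pass, and the largest falls were those of Anxa6 and Tgm2.

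The intracellular partners moved in both directions, 3 higher, 5 lower and 6 not past the threshold among 14 tested, beside the 31.8% of all genes that were higher and the 30.2% that were lower. Their median log2 fold change was -0.08. The partner of S100a11, Anxa1, a calcium-dependent phospholipid binder with anti-inflammatory roles, rose from 12886, 16187 and 14346 counts to 26097, 37419 and 42827, a log2 fold change of 1.40 with an SE of 0.188 (adjusted p = 0.000306). The partner of S100a10, Anxa2, fell from 55205, 60162 and 66908 counts to 27651, 35259 and 41184, a log2 fold change of -0.70 with an SE of 0.164 (adjusted p = 0.00575). Neither S100a11 nor S100a10 passed, so in both pairs the annexin passed where its S100 partner did not; a difference in change between them was not tested.

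Among the partners of S100a6, Anxa11 fell by 1.20 on the log2 scale (SE 0.107, adjusted p = 3.38e-05) and Cacybp, a ubiquitin ligase adaptor, was higher by 0.44 (SE 0.136, adjusted p = 0.0215). The Cacybp call held in 9 of 15 alternatives. Anxa6, a membrane scaffold, had 2112 to 2295 counts in WT and 254 to 335 in KO, and Tgm2, a transglutaminase that cross-links S100 proteins among others, had 25559 to 37428 and 3511 to 5257. Both had a log2 fold change of -2.80. Anxa3 was higher by 1.17 and Anxa8 lower by 0.53 (log2 fold change -0.53). Anxa4, Anxa5, Anxa7, Anxa9, Ahnak and Padi3 did not pass. Padi3, which citrullinates S100a3 in hair, had at most 37.2 counts in any library.

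Of the 7 receptors that bind extracellular S100 proteins, 4 had enough reads to be tested and 2 were higher in KO, too few to set against the 31.8% of all genes. Ager, the receptor for advanced glycation end products, gave counts of 7, 8 and 8 in WT, and of 20, 22 and 16 in KO (log2 fold change 1.43, SE 0.321, adjusted p = 0.00472). Mcam, a vascular adhesion molecule that binds S100a8 and S100a9, gave counts of 4, 45 and 1 in WT, and of 155, 121 and 109 in KO (log2 fold change 3.05, SE 0.790, adjusted p = 0.00947), with WT replicate 2 again highest in its group. Without that library the Mcam value was 5.73 (adjusted p = 3.18e-05). Tlr4, with 707 to 952 counts in WT and 684 to 793 in KO, did not pass (log2 fold change -0.08), and neither did Bsg (0.23, adjusted p = 0.0553). Cd36, Fpr1 and Fpr2 had at most 8 counts in any library.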

How the data were processed

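The deposited table held, per library, estimated counts, FPKM and TPM that the authors made with SOAPnuke, Bowtie2 2.2.5 and RSEM 1.2.12 from ribosomal RNA-depleted total RNA. The methods name a BGI sequencer and the labels an Illumina kit. The submitters' processing notes name mm9, but the coordinates in the table are those of GRCm38. RSEM divides shared reads, and in each library 30.4% to 32.3% of the genes had an estimated count more than 0.005 from a whole number. The authors' group means, fold changes and p-values from DESeq2 were not used.

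Samples were grouped by their labelled genotype. After rounding, the estimated counts entered edgeR 4.0.16 under R 4.3.3 (TMM, filterByExpr, quasi-likelihood, genotype as the only term) on all 13305 genes that passed the filter. The SE is the absolute log2 fold change over the square root of F. CPM was scaled by TMM factors, and 3 counts correspond to 0.137 to 0.152 CPM, a floor for counting error only. The deposited FPKM served limma 3.58.1 as log2(FPKM + 1) and log2(FPKM + 0.1), and the deposited TPM served comparisons between genes. Also tried were RLE factors, scaling by library totals alone, leaving the 20 most abundant genes out of TMM, dropping the filter on low counts, requiring a mean count of at least 50, blocking on replicate number, DESeq2 1.42.0 and omitting each library in turn. The tests were also tried on simulated counts in which every gene had the same dispersion. These data differ from that, so the trial does not bear on genes with an uneven WT group. The ratio test used Python 3.11.15. Replicates of a group differed beyond counting noise in each of the 6 pairs (chi-square per degree of freedom 18.8 to 47.5).

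The genes named were the 10 members, Rela, the listed S100 genes, partners, receptors, stress keratins and markers, and the 5 genes nearest to S100a8 and to S100a9. Members and lists were chosen with earlier results of these data known. S100a5, S100a7l2, S100g, Mpo and Camp, and a few other listed markers, were not analysed here. Protein sequences were not used here.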

Additional observations from a re-analysis of the deposited data

How the results depend on the processing

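Over the 15 alternatives to each of the 10 members, 142 of 150 results kept both direction and side of the threshold, 4 fell short of it (S100a9 without WT replicate 1 or 3 or KO replicate 2 or 3), 2 newly passed (S100a11 with DESeq2 and with the replicate block) and 2 changed sign, S100a6 at 0.00 without WT replicate 3 and S100a10 at -0.02 without KO replicate 3. Leaving out each replicate in turn gave 5 to 6 members past an adjusted p of 0.05 and 2 to 4 at the study's threshold, the 4 being reached without WT replicate 2, when S100a8 and S100a9 joined S100a4 and S100a7a. Same-numbered libraries had correlations of 0.05, -0.02 and 0.06 between their deviations from the group means, so no pairing by replicate number was seen. With 3 libraries a group, these values cannot exclude a pairing. Under the replicate block S100a8 had a log2 fold change of 6.27 (adjusted p = 0.000762) and S100a9 one of 5.23 (adjusted p = 0.00386). With the replicate block 7 members passed instead of 6, S100a11 at an adjusted p of 0.0416, and the block kept the 8 partners, 2 receptors and the S100a13 call.

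Of the other lists, the other S100 genes had 2 passing under total counts only, limma on log2(FPKM + 1) and limma on log2(FPKM + 0.1), S100pbp being added as lower, and the receptors had 4 with DESeq2 (Ager, Bsg, Fpr2 and Mcam, of which Fpr2 had been below the low count filter of edgeR). Values near 0 changed sign. Leaving out each replicate, S100a6 ranged from -0.28 to 0.00, S100a10 from -0.02 to 0.33, S100a1 from -0.07 to 0.07, Padi3 from -0.47 to 1.21 and Tlr4 from -0.20 to 0.01. S100a1 was 0.02 with a mean count of at least 50, and 0.00, 0.07 and 0.07 without WT replicate 1, WT replicate 3 and KO replicate 1. Anxa5 was -0.04 under total counts only and under both limma settings. Padi3 was -0.47 without KO replicate 2 and Tlr4 0.01 without WT replicate 2. Krt16 passed in 8 of 15 alternatives. The causes were not tested. No scaling moved the median of all genes by 0.1 or more.

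Depth limits S100a8 in WT replicates 1 and 3, whose 0 and 1 counts cannot be told from each other, and the neutrophil markers at or under 3 counts, which were not detectable at this depth rather than absent. With 3 samples a group, the exact test of the S100a8 to S100a9 ratio cannot pass 0.05.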

Other observations

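Other alarmins and S100a2 were read after the values of these data had been seen, as values only. Il33, a nuclear cytokine released by damaged epithelium, gave counts of 193, 269 and 429 in WT, and of 1597, 1950 and 1952 in KO (log2 fold change 2.73, SE 0.266, edgeR adjusted p = 5.52e-05), with no high WT replicate 2. Hmgb1 and Hmgb2, chromatin proteins that act as danger signals outside the cell, had log2 fold changes of 0.40 and 1.01, Hspd1 1.15 and Il1a 0.43, each with all KO libraries above all WT libraries in CPM, and the Il1a call held in 9 of 15 alternatives. Lcn2, an iron-siderophore binder often measured beside S100a8 and S100a9, gave counts of 55, 133 and 20 in WT, and of 174, 114 and 165 in KO. Its groups overlapped, with WT replicate 2 the highest of its group, and it did not pass (log2 fold change 1.23, SE 0.524, adjusted p = 0.0696). Without WT replicate 2 it did, at 2.13 with an adjusted p of 0.00219, and it passed in 4 of 15 alternatives. S100a2, annotated inside the span of S100a3, had 19 to 30 counts in WT and 15 to 32 in KO and did not pass (log2 fold change 0.11, adjusted p = 0.800).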
